A study of Mus musculus with 2 samples.

Results

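The genes of oxidative phosphorylation were described in single cells of injured mouse spinal cord. The rule took genes whose symbols begin with a fixed set of name stems used for subunits of respiratory complexes I to V. It found 102 of the 31053 genes in the count matrices. Any subunit with another symbol is left out, so the counts per complex are counts of members. Of these, 13 are encoded by the mitochondrial genome (7 in complex I, 1 in complex III, 3 in complex IV and 2 in complex V) and 89 by the nucleus (36 in complex I, 4 in II, 8 in III, 19 in IV and 16 in V). The remaining 6 nuclear genes share the name stem without being subunits, namely the complex II assembly factors Sdhaf1, Sdhaf2, Sdhaf3 and Sdhaf4, the supercomplex assembly factor Cox7a2l and Atp5s, and they were kept as members. Each group is 1 library: spinal cord given an HDAC3 inhibitor, and spinal cord given vehicle, both taken 5 days after injury. The labels do not name the compound, its dose, the strain, the age, the injury level or the number of animals behind a library. RNA was read with the 10x Genomics 3' version 3 chemistry, which counts molecules by unique molecular identifiers (UMIs) near the 3' end of polyadenylated RNA. With 1 library per group there is no replicate check: the values compare 2 libraries, and the treatment and any other difference between the libraries cannot be told apart.

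Oxidative phosphorylation makes most of the ATP of resting cells. Complexes I and II pass electrons from NADH and succinate to ubiquinone, complex III passes them to cytochrome c, complex IV to oxygen, and the proton gradient built on the way drives ATP synthesis in complex V. The mitochondrial genome encodes core subunits of complexes I, III, IV and V in 1 circular molecule that is transcribed into long precursors and cut at the tRNAs, whereas all subunits of complex II and the accessory and assembly-related subunits of the others come from nuclear genes. The nuclear genes are served by factors such as NRF1, which binds palindromic GC-rich sites in their promoters. HDAC3 removes acetyl groups from histones as part of the corepressor complexes NCoR and SMRT, through which nuclear receptors and other factors repress genes of energy metabolism in several tissues. In the injured cord, neurons, glia, vessel cells and invading leukocytes differ widely in how much of their ATP comes from this pathway, and neutrophils are known to live mainly on glycolysis.

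Sequences of both genomes bear on how the members are read. On the mitochondrial genome, mt-Nd3 lies between tRNA genes and its RNA ends at its own 3' end, the end this chemistry reads. It is shown because mt-Nd3 had the lowest ratio between the libraries of any mitochondrial gene with 20 UMIs or more in each of the 8 cell classes compared below. The 3' ends of mt-Atp8 and mt-Nd4l lie inside a transcript shared with mt-Atp6 and mt-Nd4. Their reading frames overlap by 43 and 7 bases, marked in capitals, so the UMIs of both genes of a pair can come from 1 RNA molecule and their split is uncertain. All 3 stretches are from the GENCODE M21 transcripts on mm10, forward strand of the mitochondrial genome.
mt-Nd3, last 120 of 348 bases, chrM:9687-9806: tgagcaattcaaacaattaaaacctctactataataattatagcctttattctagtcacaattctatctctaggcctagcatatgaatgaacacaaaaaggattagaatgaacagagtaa
mt-Atp8 and mt-Atp6, chrM:7897-7999: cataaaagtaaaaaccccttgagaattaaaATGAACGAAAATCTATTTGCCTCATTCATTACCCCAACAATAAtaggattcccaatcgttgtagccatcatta
mt-Nd4l and mt-Nd4, chrM:10137-10203: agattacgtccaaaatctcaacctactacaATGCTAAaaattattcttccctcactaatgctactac

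For the nuclear members, RefSeq promoters on GRCm38.p6 (the mm10 assembly) were matched by symbol for 73 of the 88 nuclear symbols, 2 of them through a newer symbol. The NRF1 consensus palindrome, whose letters stand in capitals in the sequences below, was searched on both strands in the 250 bases before each RefSeq start. A gene counted if any of its starts had a match. It was found in 4 of the 73 members (5.48%) and in 237 of 27025 genes (0.877%). The core CCGGAAG of ETS family factors was found in 14 members (19.2%) and in 7.83% of genes, AAGATGGC of YY1 in 1 member (1.37%) and 1.83% of genes, and ACGTG of the hypoxia-inducible factors in 16 members (21.9%) and 18.5% of genes. For the 4 members with the NRF1 palindrome, the last 200 bases before a RefSeq start are shown 5' to 3' on the gene's strand, with the palindrome in capitals. The first RefSeq promoter holding it was used. These starts can differ from GENCODE M21: the Atp5g2 stretch lies inside the gene as placed there (chr15, 102662864 to 102672352). Those of Cox6a1 and Atp5k overlap the GENCODE gene in part. All 4 members with a match are shown, whatever their direction between the libraries. Ndufa11 had the higher level in the HDAC3 inhibitor library in 8 of 8 cell classes, Atp5g2 in 5, Cox6a1 in 3 and Atp5k in 2. A match describes the letters and is not a measured binding site.
Ndufa11, chr17:56717562-56717761, forward strand: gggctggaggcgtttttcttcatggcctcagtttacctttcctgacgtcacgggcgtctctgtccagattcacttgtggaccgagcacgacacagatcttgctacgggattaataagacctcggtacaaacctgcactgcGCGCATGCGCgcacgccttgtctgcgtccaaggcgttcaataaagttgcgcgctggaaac
Atp5g2, chr15:102671048-102671247, reverse strand: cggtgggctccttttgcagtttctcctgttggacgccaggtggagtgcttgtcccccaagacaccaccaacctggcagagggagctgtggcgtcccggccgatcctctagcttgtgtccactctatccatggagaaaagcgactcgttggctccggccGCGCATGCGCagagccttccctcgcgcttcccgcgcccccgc
Cox6a1, chr5:115348959-115349158, reverse strand: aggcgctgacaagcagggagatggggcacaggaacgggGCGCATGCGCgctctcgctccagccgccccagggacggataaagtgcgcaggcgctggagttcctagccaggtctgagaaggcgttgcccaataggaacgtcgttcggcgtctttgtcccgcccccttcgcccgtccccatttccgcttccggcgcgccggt
Atp5k, chr5:108434400-108434599, reverse strand: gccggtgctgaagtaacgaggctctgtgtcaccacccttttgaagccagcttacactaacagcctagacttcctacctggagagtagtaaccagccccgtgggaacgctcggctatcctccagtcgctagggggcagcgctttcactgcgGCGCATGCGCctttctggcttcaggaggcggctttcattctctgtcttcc

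The HDAC3 inhibitor library held 3423 barcodes with 38957752 UMIs and the vehicle library 2523 barcodes with 29726813 UMIs. A barcode entered as a cell from 500 genes and 1000 UMIs upward, as long as mitochondrial UMIs did not exceed 15%, and 195 barcodes (5.70%) and 176 barcodes (6.98%) were over the mitochondrial limit. After 71 and 38 likely doublets were left out, 2904 and 2132 cells formed 25 clusters, of which 21 could be named by marker genes into 14 classes, called microglia-like and so on because the names rest on markers alone. In each of the 14 classes all markers of its own list had at least 1 UMI in both libraries. A limit on mitochondrial UMIs removes the cells with the highest level of 13 of the members, so every mitochondrial level below is a level among the cells that passed it. The libraries shared 10 barcodes, 3 of them among kept cells of both. Levels are CPM, the usual scaling of a gene's UMIs by all UMIs of the class and library, and the 95% intervals, exact Poisson for levels and exact conditional binomial for ratios, cover counting error only. Of paired values the HDAC3 inhibitor library comes first and the vehicle library second, and a ratio divides the former by the latter. Less RNA of a gene per cell and a smaller share of the cells that express it within a class cannot be told apart from class sums.

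Cell classes differed far more in these genes than the libraries did. In neutrophil-like cells the 13 mitochondrial members made up 0.722% and 0.627% of all UMIs, the lowest share of the 14 classes in both libraries. Monocyte/macrophage-like cells followed with 2.21% and 2.65%, and microglia-like cells had 3.53% and 3.61%. At the upper end stood ependymal-like cells, the ciliated lining of the central canal, with 8.90% and 9.68%, and astrocyte-like cells with 10.6% and 8.76%, the latter from 28 and 11 cells. Oligodendrocyte-like cells had 5.87% and 6.62% and mural-like cells (pericytes and smooth muscle of vessels) 5.38% and 6.29%. All 13 mitochondrial members had their lowest level of the 14 classes in neutrophil-like cells in both libraries.

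**Figure D1:**
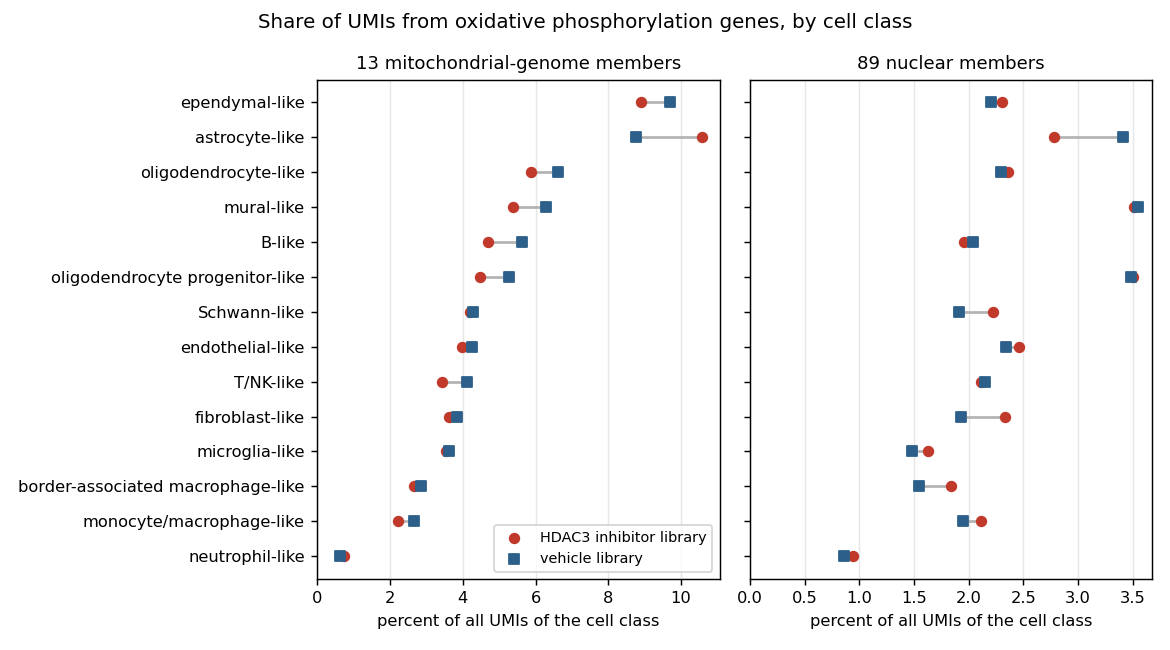
Each row is a cell class, and the x axes give the percent of all UMIs of that class held by the 13 mitochondrial-genome members (left) and the 89 nuclear members (right); circles are the HDAC3 inhibitor library and squares the vehicle library, with no replicates. Neutrophil-like cells are lowest on both axes, at 0.722% and 0.627% mitochondrial and 0.943% and 0.856% nuclear, and the line between the libraries is short beside the spread of classes.

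The nuclear members ordered the classes differently. Neutrophil-like cells were again lowest (0.943% and 0.856%), followed by microglia-like cells (1.63% and 1.48%), but the highest shares were in mural-like cells (3.51% and 3.55%) and oligodendrocyte progenitor-like cells (3.503% and 3.486%). Ependymal-like cells, with a high mitochondrial share, had 2.31% and 2.20%. The mitochondrial UMIs were 3.86 and 4.40 times the nuclear ones in ependymal-like cells and 0.77 and 0.73 times in neutrophil-like cells. Of the 84 nuclear members with 20 UMIs or more in their highest classes, 68 and 65 were lowest in neutrophil-like cells, and 54 had the same highest class in both libraries. Nearby classes in this order, such as endothelial-like (2.46% and 2.34%) and oligodendrocyte-like (2.36% and 2.29%), differed by about as much as the libraries did.

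Between the libraries, the mitochondrial members were lower in the HDAC3 inhibitor library in 7 of the 8 classes compared, those for which both libraries held 50 cells or more. Their summed level had its lowest ratio in monocyte/macrophage-like cells, at 22127 and 26488 CPM, a ratio of 0.835 (0.831 to 0.840). Mural-like cells had a ratio of 0.855 (0.843 to 0.867), oligodendrocyte-like cells 0.886 (0.881 to 0.891), ependymal-like cells 0.919 (0.909 to 0.929) and endothelial-like cells 0.932 (0.924 to 0.939). Microglia-like cells, at 35258 and 36096 CPM (ratio 0.977, 0.971 to 0.983), and Schwann-like cells (0.979, 0.962 to 0.995) were close to 1. Neutrophil-like cells went the other way, at 7222 and 6269 CPM, a ratio of 1.15 (1.12 to 1.19). Of the 24 clusters with at least 10 cells in each library, named or not, 18 had a lower mitochondrial share in the HDAC3 inhibitor library and 6 a higher one. Clusters of 1 class could differ. The larger oligodendrocyte-like cluster (306 and 156 cells) had 6.65% and 6.91%. The one with Klk6 among its leading genes (65 and 37 cells) had 3.97% and 5.82%. The smaller microglia-like cluster (3.42% and 3.20%) and the smaller Schwann-like cluster (3.70% and 3.59%) went against the direction of their class.

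The direction did not hold under every choice of cells in 4 of these classes. It turned in ependymal-like cells under a 10% mitochondrial limit (1.03), in Schwann-like cells when only cells of 5000 to 20000 UMIs were summed (1.22), in microglia-like cells with each cell weighted alike (1.05), and in neutrophil-like cells with each cell weighted alike (0.969) or thinned to 2000 UMIs (0.992). In monocyte/macrophage-like, oligodendrocyte-like, endothelial-like and mural-like cells the summed ratio stayed below 1 under all 13 alternatives, between 0.759 and 0.866, 0.871 and 0.962, 0.915 and 0.936, and 0.767 and 0.981.

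Gene by gene, the mitochondrial members did not move as a block. In monocyte/macrophage-like cells 2 of 13 had a ratio above 1, where 48.6% of all 10585 genes did, and in mural-like cells 0 of 13 (48.8% of all genes). The count was 1 of 13 in oligodendrocyte-like cells (52.8% of all genes) and in ependymal-like cells (50.4%), 4 of 13 in endothelial-like cells (49.7%) and 5 of 13 in microglia-like (46.2%) and in Schwann-like cells (50.9%). All 12 measured mitochondrial members, those with at least 20 UMIs, were higher in neutrophil-like cells, where 58.4% of all genes were.

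**Figure D2:**
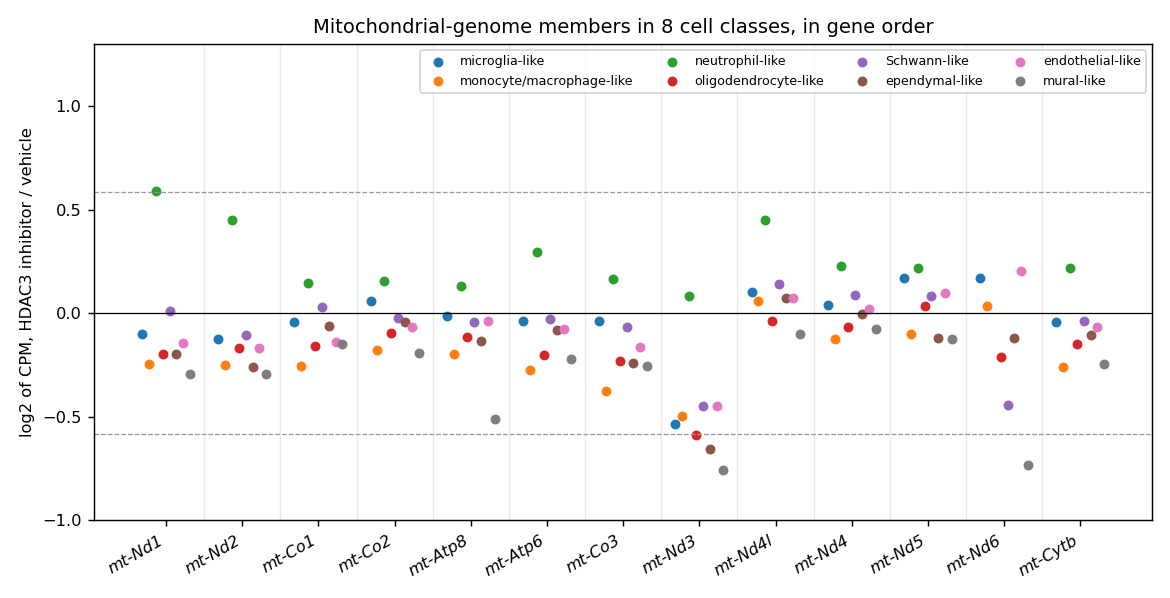
The y axis gives the log2 ratio of CPM, HDAC3 inhibitor over vehicle, for each mitochondrial-genome member, ordered along the x axis by position on the mitochondrial genome; each point is 1 cell class, and dashed lines mark 1.5-fold. mt-Nd3 is the lowest gene in each class among those with 20 UMIs or more, with ratios of 0.592 to 0.733 outside neutrophil-like cells, while mt-Nd4l just downstream lies at 0.934 to 1.37.

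mt-Nd3 encodes a small core subunit of complex I (ENSMUSG00000064360, mm10 mitochondrial genome, 9459 to 9806). In microglia-like cells its level was 639 and 925 CPM (0.690, 0.662 to 0.721). The monocyte/macrophage-like class held it at 309.9 and 436.5 CPM (0.710, 0.678 to 0.743). In mural-like cells it was 990.5 and 1672 CPM (0.592, 0.538 to 0.652). The vehicle library was thus the higher one in each of these classes. Oligodendrocyte-like cells had 1161 and 1747 CPM (0.665), ependymal-like cells 1009 and 1591 CPM (0.634), Schwann-like cells 963 and 1314 CPM (0.733) and endothelial-like cells 722 and 985 CPM (0.733). In neutrophil-like cells the gene rested on 67 and 101 UMIs, and its ratio was 1.06 (0.767 to 1.46). It was lower in the HDAC3 inhibitor library in 23 of 25 clusters. That count was near those of mt-Nd2 (22), mt-Co3 (21), mt-Nd1 (19) and mt-Co1 (19), whereas mt-Nd4l was lower in 5 of 24. In the 519 and 391 barcodes left out by the filters or as doublets, mt-Nd3 had 1321 and 2311 CPM, a ratio of 0.572 (0.542 to 0.602), against 0.706 to 0.854 for the other 12 mitochondrial genes there, so the same gene stood lowest among barcodes that no class contains.

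Counted within the mitochondrial RNA alone, mt-Nd3 made up 1.81% and 2.56% of mitochondrial UMIs in microglia-like cells and 1.84% and 2.66% in mural-like cells. Its share was lower in the HDAC3 inhibitor library in 8 of 8 classes, with share ratios of 0.690 to 0.921, and so was that of mt-Co3, a core subunit of complex IV (0.921 to 0.996). The shares of mt-Nd4l, mt-Nd4 and mt-Nd5, 3 complex I subunits that follow mt-Nd3 on the genome, were higher in 8 of 8 classes, at 1.09 to 1.25, 1.02 to 1.11 and 1.003 to 1.16. The other 8 genes went both ways. Classes share their library, so these 8 directions are not independent of each other.

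In microglia-like cells the other complex I members of the mitochondrial genome lay on both sides of 1. mt-Nd1 had 1573 and 1686 CPM (ratio 0.933), mt-Nd2 1837 and 2006 CPM (0.916), mt-Nd4 2495 and 2428 CPM (1.03) and mt-Nd5 436.8 and 388.9 CPM (1.12). mt-Nd6, the one member on the other strand, whose reading frame overlaps that of mt-Nd5 by 14 bases, rested on 286 and 320 UMIs (1.12, 0.956 to 1.32). Cytochrome b of complex III, mt-Cytb, had 3171 and 3272 CPM (0.969). The complex IV core was nearly level, with mt-Co1 at 5964 and 6133 CPM (0.972), mt-Co2 at 5121 and 4918 CPM (1.04) and mt-Co3 at 6191 and 6364 CPM (0.973), and so was the complex V subunit mt-Atp6 at 7028 and 7209 CPM (0.975).

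In monocyte/macrophage-like cells, in contrast, the large mitochondrial genes were all lower in the HDAC3 inhibitor library. mt-Co1 had 4454 and 5311 CPM (0.839), mt-Co3 4089 and 5301 CPM (0.771, 0.762 to 0.781), mt-Atp6 4279 and 5167 CPM (0.828) and mt-Cytb 1512 and 1809 CPM (0.836). mt-Nd4l (235 and 226 CPM, ratio 1.04, 0.981 to 1.10) and mt-Nd6 (33.5 and 32.7 CPM) were the 2 with a ratio above 1, and the intervals of both held 1. The remaining members lay between 0.842 (mt-Nd2) and 0.933 (mt-Nd5), apart from mt-Nd3. In this class the ribosomal protein genes, which are no members, had a ratio of 0.921, and the median cell held 23154 and 25635 UMIs; their part in the result was not tested.

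Neutrophil-like cells were the one class of the 8 compared with a higher mitochondrial level in the HDAC3 inhibitor library. mt-Nd1, a core subunit of complex I, had 151 and 100.4 CPM there, from 141 and 150 UMIs, a ratio of 1.503 (1.19 to 1.90), and it was the only member of the class past 1.5-fold among those with 100 UMIs and 50 CPM or more. At these levels stood 11 mitochondrial and 49 nuclear members. Of the 1927 genes at these levels, 7.32% were past 1.5-fold on the higher side and 1.82% on the lower. mt-Nd2 (1.36) and mt-Nd4l (1.37) followed. The class held a cluster led by Ngp and Camp, genes of immature neutrophils, with 90 and 132 cells, and a cluster led by Retnlg and Il1b with 76 and 68 cells. The mitochondrial share was 0.781% and 0.663% in the former (ratio 1.18, 1.14 to 1.22) and 0.489% and 0.444% in the latter (1.10, 1.01 to 1.20), so both moved the same way. Beside these values, the 12 neutrophil markers had 413128 and 451555 CPM in sum, the median cell held 3607 and 6453 UMIs, haemoglobin and other erythroid markers had 37.4 and 2022 CPM, and the ribosomal protein genes had a ratio of 1.28. Their part in the result was not tested.

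The nuclear members leaned the other way. Their summed level was above that of vehicle in 7 of 8 classes, by the largest factor in Schwann-like cells (22242 and 19142 CPM, ratio 1.16, 1.13 to 1.19). Microglia-like cells had 16318 and 14830 CPM (1.10, 1.09 to 1.11), monocyte/macrophage-like cells 21165 and 19513 CPM (1.08, 1.08 to 1.09) and neutrophil-like cells 9434 and 8564 CPM (1.10, 1.07 to 1.13). The ratio was 1.05 in endothelial-like cells (1.04 to 1.06) and in ependymal-like cells (1.03 to 1.07), and 1.03 in oligodendrocyte-like cells (1.02 to 1.04). Mural-like cells had 0.989 (0.972 to 1.01), which holds 1. In those 7 classes the summed ratio stayed above 1 under all 13 alternatives. In neutrophil-like cells it was 1.02 under median-of-ratios scaling, which moved the median of all genes there by 0.12 on the log2 scale. The median log2 ratio of the nuclear members went from 0.15 to 0.03, with a ratio above 1 for 42 of 75 in place of 56. Of all 14 classes, 4 had a lower nuclear share in the HDAC3 inhibitor library. These were mural-like, T/NK-like (2.11% and 2.15%), B-like (1.96% and 2.04%) and astrocyte-like cells (2.78% and 3.41%). Of the 24 clusters with at least 10 cells in each library, 18 had a higher nuclear share and 6 a lower one. The monocyte/macrophage-like cluster led by Plac8 and Chil3 (27 and 40 cells) was lower, at 2.42% and 2.58%.

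**Figure D3:**
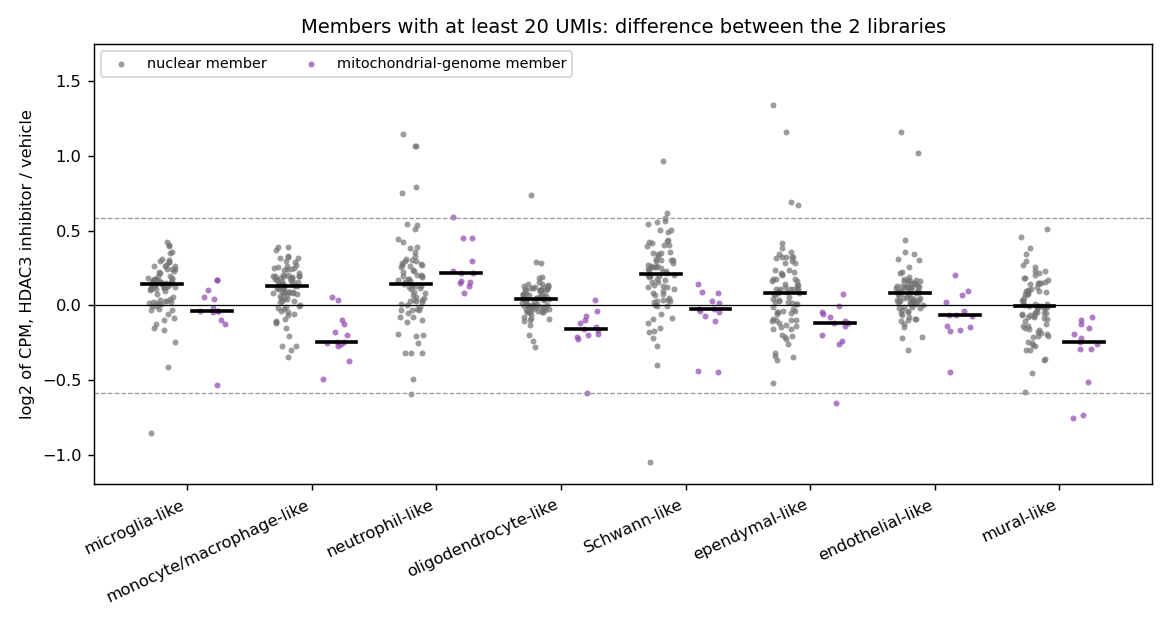
The y axis gives the log2 ratio of CPM, HDAC3 inhibitor over vehicle, and each point is 1 member with at least 20 UMIs in that class; grey points are nuclear and purple points mitochondrial-genome members, black bars are medians, and dashed lines mark 1.5-fold, beyond which lie mostly members under 100 UMIs or 50 CPM. The nuclear median lies above the mitochondrial one in every class but neutrophil-like cells, for example at 0.14 and -0.04 in microglia-like cells.

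In counts, 69 of 83 measured nuclear members had a higher level in the HDAC3 inhibitor library in microglia-like cells, 65 of 83 in monocyte/macrophage-like cells and 65 of 78 in Schwann-like cells, beside 46.2%, 48.6% and 50.9% of all genes. In endothelial-like cells it was 64 of 83 (49.7% of all genes), in neutrophil-like cells 56 of 75 (58.4%), in ependymal-like cells 52 of 81 (50.4%), in oligodendrocyte-like cells 50 of 81 (52.8%) and in mural-like cells 36 of 82 (48.8%). In microglia-like cells 83 of the 89 nuclear members reached 20 UMIs; those that did not were Cox4i2, Ndufa4l2, Cox7b2, Cox8b, Cox8c and a second gene entry for Atp5o (ENSMUSG00000116933). The differences were small: the quartiles of the nuclear ratios were 1.02 and 1.14 in microglia-like cells and 0.985 and 1.07 in oligodendrocyte-like cells. Of the 75 nuclear members measured in all 8 classes, 43 (57.3%) were higher in at least 6 of them, as were 872 of 3389 genes (25.7%). Of the 12 mitochondrial members measured in all 8, 9 (75%) were lower in at least 6, as were 567 of the 3389 genes (16.7%). Subunits of a complex are known to be expressed together, so these members are not independent of each other.

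The ribosomal protein genes and the depth per cell are given beside the nuclear members. The 92 ribosomal protein genes had ratios of 1.12 in microglia-like, 1.28 in neutrophil-like, 1.09 in Schwann-like, 1.07 in ependymal-like and 1.03 in endothelial-like cells, all above 1 like the nuclear members, but 0.921 in monocyte/macrophage-like and 0.992 in oligodendrocyte-like cells. In mural-like cells, with a nuclear ratio of 0.989, the ribosomal ratio was 0.894. The median UMI count per cell was lower in the HDAC3 inhibitor library in all 8 classes, from 7314 and 7622 in endothelial-like cells to 3607 and 6453 in neutrophil-like cells. Erythroid markers, such as haemoglobin genes, had 26.0 and 342 CPM in microglia-like and 27.6 and 969 CPM in Schwann-like cells. The part of these values in the result was not tested. Among cells of 5000 to 20000 UMIs the summed nuclear ratio was 1.13 in microglia-like, 1.29 in Schwann-like and 1.01 in monocyte/macrophage-like cells.

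Complex I, the entry point for NADH, had the most nuclear members. In microglia-like cells 31 of its 36 were higher in the HDAC3 inhibitor library, with a summed ratio of 1.11 (1.09 to 1.13), and in monocyte/macrophage-like cells also 31 of 36 (1.12, 1.10 to 1.13). Ndufa13, needed for assembly of the complex, had 310 and 267 CPM in microglia-like cells (1.16, 1.08 to 1.24). In monocyte/macrophage-like cells its level was 448 and 391 CPM (1.15, 1.10 to 1.20). Ndufa7 (215 and 208 CPM in microglia-like cells, 1.03) and Ndufa2 (306 and 284 CPM, 1.08) differed less. Ndufa12, an accessory subunit at the matrix arm, had the highest nuclear ratio of microglia-like cells (96.6 and 72.2 CPM, 1.34, 1.18 to 1.52) among members with at least 100 UMIs and 50 CPM. In monocyte/macrophage-like cells it stood level with Atp5g1 at the top (159 and 121 CPM, 1.31, 1.21 to 1.42). Ndufs4, another matrix arm subunit, was at 87.5 and 66.3 CPM in microglia-like cells (1.32, 1.15 to 1.51) and at 1.13 in monocyte/macrophage-like cells. Ndufab1, the mitochondrial acyl carrier protein, was at 157 and 122 CPM in the latter (1.29, 1.20 to 1.40).

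Complex II, succinate dehydrogenase, is encoded by nuclear genes alone, and its 4 subunits were the group without a common direction. The summed ratio was 0.966 (0.898 to 1.04) in microglia-like cells and 1.09 (1.04 to 1.14) in monocyte/macrophage-like cells. Sdhb, the iron-sulfur subunit, was among the 3 lowest nuclear members of microglia-like cells (84.6 and 100.5 CPM, 0.842, 0.744 to 0.952), but was higher in monocyte/macrophage-like cells (133 and 106 CPM, 1.25, 1.15 to 1.36). Sdhd, a membrane anchor, was near level in both (0.978 and 0.995). Sdha, the flavoprotein, was at 64.3 and 56.9 CPM in microglia-like cells (1.13, 0.971 to 1.31) and had a ratio below 1 in 6 of 8 classes, each with an interval that held 1.

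Complex III had 7 of 8 nuclear members higher in microglia-like cells (summed ratio 1.10) and 5 of 8 in monocyte/macrophage-like cells (1.04). Uqcrh, the hinge protein that meets cytochrome c, showed opposite directions, at 616 and 550 CPM (1.12, 1.07 to 1.17) in microglia-like cells but 478 and 519 CPM (0.921, 0.885 to 0.958) in monocyte/macrophage-like cells. The small subunits Uqcrq and Uqcr11 were higher in both, at 1.10 and 1.11 in microglia-like cells and 1.10 and 1.14 in monocyte/macrophage-like cells. Whether the 2 classes differ in Uqcrh cannot be tested with 1 library per group.

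In complex IV, cytochrome c oxidase, 12 of 14 measured nuclear members were higher in both myeloid classes (summed ratios 1.10 and 1.09). Cox4i1, the common form of subunit 4, was at 935 and 824 CPM (1.13, 1.09 to 1.18) in microglia-like cells. Among monocyte/macrophage-like cells it reached 1061 and 996 CPM (1.06, 1.04 to 1.09), and its ratio was above 1 in 7 of 8 classes. Cox8a was at 793 and 715 CPM in microglia-like cells (1.11), and Cox7c, in contrast, was level in both classes (1.02 and 1.0004). Cox7a2l, which joins complexes III and IV in supercomplexes and is not a subunit of either alone, was at 451 and 394 CPM in microglia-like cells (1.14, 1.08 to 1.21) but had the lowest nuclear ratio of monocyte/macrophage-like cells among members with at least 100 UMIs and 50 CPM, at 311 and 384 CPM (0.812, 0.775 to 0.852).

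In complex V, the ATP synthase, 13 of 15 measured nuclear members were higher in microglia-like cells (summed ratio 1.10) and 12 of 15 in monocyte/macrophage-like cells (1.08). Atp5e had 634 and 574 CPM in the former (1.10), Atp5l 431 and 390 CPM (1.11) and Atp5h 327 and 289 CPM (1.13). The c-ring of the enzyme is made from 3 genes that encode the same mature protein, and they did not move alike. Atp5g1 was at 206 and 161 CPM (1.28, 1.17 to 1.39) in microglia-like cells and at 307 and 235 CPM (1.31, 1.24 to 1.38) in monocyte/macrophage-like cells. Atp5g2 was at 524 and 443 CPM (1.18) and 519 and 526 CPM (0.986), and Atp5g3 at 129 and 119 CPM (1.08) and 187 and 158 CPM (1.18). Atp5g1 and Atp5g2 thus lay on different sides of 1 in the latter, and the sources used here do not give how reads that match more than 1 copy were treated.

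Across the 8 classes, 11 nuclear members had a ratio above 1 in every one: Ndufa11, Ndufa12, Ndufab1, Ndufb4, Ndufb7, Ndufb9, Ndufb10 and Ndufb11 of complex I, Cox5a of complex IV, and Atp5g1 and Atp5h of complex V. They were 14.7% of the 75 nuclear members measured in all 8, beside 87 of 3389 genes (2.57%). Of the 11, 8 are complex I genes, as were 35 of the 75. Atp5h and Ndufb9 had intervals wholly above 1 in 6 and 5 classes. Cox5a ranged from 1.005 in mural-like to 1.497 in Schwann-like cells and Ndufa12 from 1.02 in endothelial-like to 1.42 in Schwann-like cells. In the other direction, Ndufa3 was lower in 7 of 8 classes, with 5 intervals wholly below 1, among them mural-like cells (168 and 230.5 CPM, 0.730, 0.570 to 0.935) and Schwann-like cells (0.756). Atp5k was lower in 6 of 8. Of the 11, 10 had a promoter in the RefSeq table and 1, Ndufa11, held the NRF1 palindrome shown above.

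Few members passed 1.5-fold, the size used to call a gene different, with at least 100 UMIs and 50 CPM. None did in microglia-like cells, where 0.264% of genes were past it on the higher side and 0.604% on the lower, in monocyte/macrophage-like cells (0.548% and 0.64%) or in endothelial-like cells (0.761% and 0.822%). In oligodendrocyte-like cells mt-Nd3 was past it on the lower side (0.665, 0.640 to 0.690). This was 1 of 13 mitochondrial and 0 of 76 nuclear members at these levels (0.481% of genes, and 0.321% on the higher side). In Schwann-like cells Ndufa4, a complex IV subunit first assigned to complex I, was past it on the higher side (438 and 285 CPM, from 238 and 214 UMIs, 1.54, 1.27 to 1.86). This was 1 of 71 nuclear and 0 of 12 mitochondrial members at these levels (2.51% of genes, and 2.65% on the lower side). In ependymal-like cells Ndufs8, an iron-sulfur subunit of complex I, was higher (106 and 66.3 CPM, from 121 and 34 UMIs, 1.59, 1.08 to 2.40), 1 of 73 nuclear members beside 2% of genes. There mt-Nd3 was lower (0.634), 1 of 13 mitochondrial members beside 1.79% of genes. In mural-like cells mt-Nd3 (0.592) and mt-Nd6 (65.8 and 109 CPM, from 50 and 66 UMIs, 0.601, 0.408 to 0.881) were lower. These were 2 of 13 mitochondrial and 0 of 76 nuclear members at these levels (2.15% of genes, and 1.97% on the higher side). The mt-Nd3 calls were lost under a 10% mitochondrial limit, at log2 ratios of -0.57 in oligodendrocyte-like, -0.51 in ependymal-like and -0.55 in mural-like cells. The call in oligodendrocyte-like cells was also lost under 5 other alternatives (up to -0.49), and that in ependymal-like cells narrowly with cells thinned to 2000 UMIs. With the exception of mt-Nd3, each of these genes passed in 1 of the 8 classes, and over the 6 classes of 100 cells or more per library the count moved between 0 and 14 with the processing.

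Tissue-restricted forms of complex IV subunits gave the sharpest contrasts among cell classes, and these were alike in both libraries. Cox4i2, the form of subunit 4 known from lung and from cells that sense low oxygen (ENSMUSG00000009876, mm10 chromosome 2, 152754173 to 152765037), had 731 and 595 CPM in mural-like cells, from 556 and 359 UMIs. In every other class of this clustering it had at most 14 UMIs in a library and at most 6.61 CPM, reached in fibroblast-like cells. It was found in 116 of 133 and 76 of 83 mural-like cells (87.2% and 91.6%). Among endothelial-like cells it was found in 9 of 271 and 4 of 208 (3.32% and 1.92%). The median endothelial-like cell was nevertheless deeper (7314 and 7622 UMIs) than the median mural-like cell (5097 and 6268). None was found in 371 and 193 oligodendrocyte-like cells, which allows a CPM of up to 0.630 and 0.915, the limit set by 3 UMIs. Within the mural-like class the level was 1054 and 844 CPM in the cluster led by Vtn and Rgs5 (pericyte genes) and 290 and 287 CPM in the cluster led by Acta2 and Tagln (smooth muscle genes).

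Ndufa4l2, a hypoxia-inducible relative of Ndufa4 (ENSMUSG00000040280, mm10 chromosome 10, 127514967 to 127517154), had the same pattern. It had 1668 and 1549 CPM in mural-like cells, in 90.2% and 96.4% of them, and next came fibroblast-like cells with 22.9 and 13.2 CPM. The pericyte-led cluster had 2333 and 2146 CPM and the smooth-muscle-led one 757 and 807 CPM. Ndufa4l2 was among the 10 leading genes of the former and therefore helped to define it, so the clustering was repeated without the members: mural-like cells then had 1668 and 1529 CPM of Ndufa4l2 and 731 and 590 CPM of Cox4i2. The fibroblast-like class, with 58 and 27 cells in that clustering, had 22.9 and 143 CPM of Ndufa4l2 (17 and 46 UMIs) and 5.39 and 52.8 CPM of Cox4i2 (4 and 17 UMIs), so its vehicle level depended on which genes set the clusters. Between the libraries, Cox4i2 was higher in the HDAC3 inhibitor library (1.23, 1.07 to 1.41), and the interval of Ndufa4l2 held 1 (1.08, 0.989 to 1.17). Cox8a was also highest in mural-like cells (2101 and 2113 CPM).

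**Figure D4:**
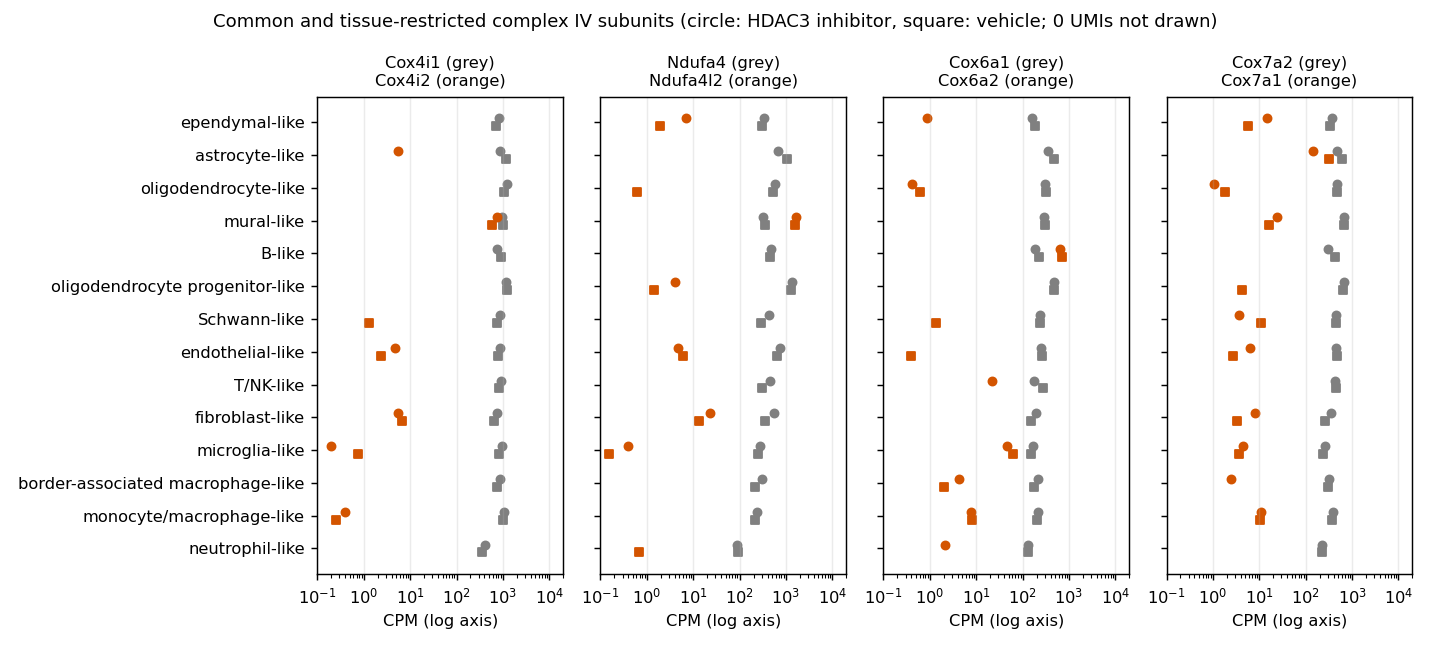
Each panel gives the level in CPM on a log axis of a common complex IV subunit (grey) and its tissue-restricted relative (orange) in 14 cell classes; circles are the HDAC3 inhibitor library, squares the vehicle library, and genes without a UMI are not drawn. Cox4i2 and Ndufa4l2 reach 731 and 1668 CPM in mural-like cells of the HDAC3 inhibitor library and stay below 30 CPM in the other 13 classes of the clustering shown (fibroblast-like cells of the vehicle library reached 52.8 and 143 CPM when clustered without the members). Cox7a1 peaks in astrocyte-like cells. Cox6a2 peaks in the B-like class, where it came from 15 cells, 14 of them with Siglech and 2 with Cd79a.

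Cox6a2, the heart and muscle form of subunit 6a (ENSMUSG00000030785, mm10 chromosome 7, 128205435 to 128206387), was highest in B-like cells, with 642 and 710 CPM, but not in all of them. It was found in 5 of 23 and 10 of 39 B-like cells. Of these 15 cells, 14 had a UMI of Siglech and 13 of Ccr9, both known from plasmacytoid dendritic cells, while 2 had Cd79a, part of the B cell receptor, and 0 had Ms4a1, a B cell surface protein. Of the 47 B-like cells without Cox6a2, 47 had Cd79a, 27 Ms4a1, 1 Siglech and 0 Ccr9. These cells were shallower (a median of 3602 UMIs) than the 15 (10052 UMIs). The Cox6a2 level of the B-like class is therefore the level of a minority of its cells with other markers, a comparison made after the values were seen.

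Microglia-like cells were the other class with Cox6a2, at 47.1 and 62.8 CPM, from 243 and 408 UMIs, the lowest nuclear ratio of the class among members with at least 100 UMIs and 50 CPM (0.750, 0.637 to 0.881). It was found in 24.3% and 32.0% of microglia-like cells, in 7.44% and 8.55% when each cell was thinned to 2000 UMIs (19 and 22 shallower cells left out), and the median microglia-like cell held 10515 and 11980 UMIs. In endothelial-like cells 0 of 271 and 1 of 208 held it. Monocyte/macrophage-like cells had 7.77 and 8.26 CPM. Cox7a1, the heart and muscle form of subunit 7a, reached 141 and 324 CPM in astrocyte-like cells, from 26 and 11 UMIs, and at most 23.7 CPM in any other class. Cox6b2, known from testis, stayed at or below 92.2 CPM in each class and library, and the forms Cox8b and Cox8c had no UMI in any barcode.

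The common forms of the same subunits were found in every class and were lowest in neutrophil-like cells in both libraries. Ndufa4 ranged from 89.9 and 91.7 CPM there to 1329 and 1254 CPM in oligodendrocyte progenitor-like cells, and Cox6b1 from 214 and 210.1 CPM to 770 and 890.5 CPM in the same pair of classes. Cox7a2 was highest in mural-like cells (660 and 670.1 CPM). Between the libraries Cox7b was at 224 and 183 CPM in microglia-like cells (1.22), Cox6b1 at a ratio of 1.11, Cox7a2 at 1.11 and Cox6a1 at 1.06. Ndufs1, the largest subunit of complex I, was the one gene outside the tissue-restricted forms among the 5 members that stood most above their median class. Its highest level was in astrocyte-like cells (109 and 147 CPM), which rests on 20 and 5 UMIs.

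Genes that serve the pathway without being subunits were counted from lists chosen with earlier results of these data known. In microglia-like cells 9 of 14 measured complex I assembly factors, 13 of 30 assembly factors of complexes II to V (the 4 Sdhaf members included), 6 of 9 mobile carriers and exchangers, 9 of 18 genes of the tricarboxylic acid cycle and 4 of 17 genes of mitochondrial biogenesis and transcription were higher in the HDAC3 inhibitor library. Their median log2 ratios were 0.10, -0.03, 0.03, -0.00 and -0.17, beside 0.14 for the nuclear members and -0.02 for all genes. In monocyte/macrophage-like cells the counts were 7 of 14, 17 of 30, 6 of 9, 10 of 18 and 10 of 17, with medians of 0.02, 0.05, 0.03, 0.02 and 0.03, beside 0.13 for the nuclear members and -0.01 for all genes.

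By gene, Atpif1, the inhibitor of ATP synthase, was higher in both, with ratios of 1.17 among microglia-like cells (283 and 242 CPM) and 1.19 among monocyte/macrophage-like ones (323 and 272 CPM). Cycs, cytochrome c, was level in microglia-like cells (119 and 121 CPM) and at 143 and 124 CPM (1.15) in monocyte/macrophage-like cells. The copper chaperone Cox17 was lower in both (0.845 and 0.861). Tfam, the transcription and packaging factor of mitochondrial DNA, was at 23.4 and 25.2 CPM (0.928) in microglia-like cells and at 11.5 and 14.0 CPM (0.822) in monocyte/macrophage-like cells. Ppargc1a, the coactivator of mitochondrial biogenesis, had 1 and 2 UMIs in microglia-like cells, too few for a ratio. Of these lists, Suclg1, a subunit of succinyl-CoA ligase, was the one gene past 1.5-fold in any of the 8 classes, in Schwann-like cells (118 and 77.2 CPM, from 64 and 58 UMIs).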

How the data were processed

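The deposited files hold raw UMI counts per gene and barcode, which the file headers credit to Cell Ranger 3.0.2, run by the authors; mm10 and Seurat are also named, per the submitters' processing notes. The sources used here do not give how reads matching several genes were counted. Members were matched by symbol, and positions are from GENCODE M21. Both the members and the lists of other genes were chosen with earlier results of these data known.

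A barcode was kept from 500 genes and 1000 UMIs upward if mitochondrial UMIs did not exceed 15%, and the highest doublet scores of Scrublet (scanpy 1.11.5) were left out at 0.8% per 1000 cells, because its automatic threshold marked 17 and 6 barcodes, 0.447%. Log-normalized counts of 2000 variable genes gave 30 principal components and a graph of 20 neighbours, clustered with leidenalg 0.10.2 at resolution 1. Clusters were named from marker lists, with score limits set after the clusters were seen. Counts were then summed per class and library. A member was measured from 20 UMIs over both libraries, and called past 1.5-fold from 100 UMIs and 50 CPM in the higher library. No test was run, since cells of 1 library are not replicates. On simulated data 95.5% of 200 genes changed 2-fold were recovered in neutrophil-like cells and 97.5% of 200 in Schwann-like cells, where 21 and 31 unchanged genes were called as well. Both simulated libraries were Poisson counts around the pooled mean of the 2 real ones. The simulation thus covers counting error only, and cannot tell how reliable a call is between 2 unreplicated libraries. The text names all mitochondrial members, the 3 most counted nuclear members of each complex, the tissue isoform families, members past 1.5-fold, the 3 highest and 3 lowest of both myeloid classes, the 5 that stand most above their median class, and up to 3 genes of each other list. Members higher or lower in most classes were named after their values were seen.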

Additional observations from a re-analysis of the deposited data

Results flagged for a closer look

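The summed mitochondrial level of neutrophil-like cells was singled out because its ratio was above 1, at 1.15, while those of the 7 other classes compared were below 1. Its direction turned under 2 alternatives, each cell weighted alike and thinned to 2000 UMIs. Outside the classes compared, astrocyte-like cells also had a higher mitochondrial share in the HDAC3 inhibitor library (10.6% and 8.76%, from 28 and 11 cells). With 1 library per group the difference between classes was not tested.

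Ndufa4l2 appeared outside the named classes, in a cluster of 160 and 104 cells left unnamed because endothelial markers stood beside erythroid ones. It had 205 and 20 UMIs there, 99.7 and 16.8 CPM. In the HDAC3 inhibitor library 8 cells with at least 10 UMIs held 157 of the 205, the highest of them 31.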

How the results depend on the processing

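The number past 1.5-fold in microglia-like cells (0 as reported) was 3 with cells thinned to 2000 UMIs, 1 in cells of 5000 to 20000 UMIs and 1 with 20 UMIs and no CPM floor. In monocyte/macrophage-like cells (0) it was 3 when a cell's own markers set its class, 2 thinned and 1 in cells of 5000 to 20000 UMIs. In neutrophil-like cells (1) it was 0 under median-of-ratios scaling, without a mitochondrial limit and thinned, 2 under a 10% limit, clustered without the members, at resolution 2 and with cells weighted alike, 4 from at least 1000 genes and 2000 UMIs and in the largest cluster, 6 in cells of 5000 to 20000 UMIs, 7 with no floor and 14 with doublets kept. In oligodendrocyte-like cells (1) it was 0 under a 10% limit, without a limit, with own markers, weighted alike, in the largest cluster and with doublets kept, and 2 thinned and with no floor. In Schwann-like cells (1) it was 0 under median-of-ratios scaling and with doublets kept, 2 under a 10% limit, 3 from at least 1000 genes and with no floor, 4 weighted alike, thinned and in the largest cluster, and 5 with own markers and in cells of 5000 to 20000 UMIs. In endothelial-like cells (0) it was 1 thinned and 2 with no floor. For these counts and those that follow, the share of all genes under the same alternative is not given. They show how far the counts moved, and not whether members moved more than other genes. The number of mitochondrial members higher in the HDAC3 inhibitor library was 10 in microglia-like cells weighted alike (5 as reported); in monocyte/macrophage-like cells (2) it was 1 without a limit, with doublets kept and in cells of 5000 to 20000 UMIs, and 0 with own markers; in neutrophil-like cells (12) it was 7 thinned; in oligodendrocyte-like cells (1) it was 2 without a limit and thinned, 3 weighted alike and 4 in the largest cluster; in Schwann-like cells (5) it was 3 under median-of-ratios scaling and 10 in cells of 5000 to 20000 UMIs; in endothelial-like cells (4) it was 2 weighted alike. The number of nuclear members higher in neutrophil-like cells was 35 of 56 measured when thinned (56 of 75 as reported). The cause was not tested. The other 224 of 276 values of these counts stayed within 1.5 times. Cells of 5000 to 20000 UMIs were chosen as an alternative after seeing the data. Median-of-ratios scaling moved the median of all genes by over 0.1 on the log2 scale in neutrophil-like cells alone (0.12). Depth limits the low members: under 20 UMIs no ratio was given. No paired analysis was possible because each group has 1 library, and for the same reason no library could be left out.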
